A study of Mus musculus with 6 samples.

Results

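The 10 genes that follow, known mainly from the adult testis, were read in fetal mouse ovaries: Ubl4b, 1700008K24Rik, Tex33, Fam205c, Spata4, Prdx6b, Cypt4, Cmtm2b, Prr30 and Oaz3. They are 10 of the 48709 genes in the count table and were chosen by the read counts themselves, as testis genes near the top when genes are ordered by the evidence for a lower level in exposed ovaries. Their difference between the groups is therefore described and not tested. The table held ovaries of CD1 mouse embryos at 13.5 dpc, in 3 control libraries from dams given ethanol and 3 APAP+IBU libraries. The exposed dams received acetaminophen (APAP, 30 mg/kg per day) and ibuprofen (IBU, 15 mg/kg per day) alternately by gavage between 10.5 and 13.5 dpc. Each library came from its own pool of gonads, taken from several embryos of a pair of dams, and was a stranded library of polyadenylated RNA, and nothing finer than the pool could be followed. The titles of the exposed samples name ibuprofen alone, while their exposure label names both drugs. The question was which genes of the fetal ovary differ after exposure of the mother.

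Spermatids are the haploid cells that follow meiosis in the adult testis, and they transcribe many genes that no other tissue uses in quantity. Several of these genes are single-exon copies of genes used throughout the body, and many have no known function. Germ cells of the fetal ovary enter meiosis as oocytes and form no spermatids. Reads of the 10 genes were few in these ovaries, at 17 to 361 counts in a control library. Some other spermatid genes had more there, such as Prm1 with 248 to 1367 counts.

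All 10 genes had reads in each control library and few in the exposed ones. Together they held 1186, 533 and 594 counts in the control libraries, here and below in the order of replicates 1 to 3, but only 78, 74 and 56 counts in the exposed libraries. In each of the 10 genes every exposed library lay below every control library, as was the case for 5.92% of the 20167 tested genes, while 4.78% had every exposed library above every control. The members were picked for this contrast, so nothing is read from that count. The fitted log2 fold changes of exposed against control ran from -6.06 (Cypt4) to -2.80 (Oaz3), with a median of -4.17, where the median of all tested genes was -0.0047. All 10 were at or below -2, a range that held 0.952% of the tested genes. In edgeR's quasi-likelihood test 0 genes of the whole table (0%) had an adjusted p below 0.05, and the smallest adjusted p of any gene was 0.0906. At an unadjusted p under 0.05, 648 genes were lower, which is 3.21% of those tested, and 606 were higher, which is 3% of them. DESeq2 gave 173 lower genes (0.858%) and 19 higher genes (0.0942%) at its own adjusted p under 0.05.

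The libraries were of like depth, with 37811968 to 48954631 counts each. A pair of features set libraries apart from the others of their group. Control replicate 1 held the most reads of male germ cell genes, and replicate 3 of each group held the most reads of fetal liver genes. Values with and without those libraries are given where they touch a result.

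**Figure D1:**
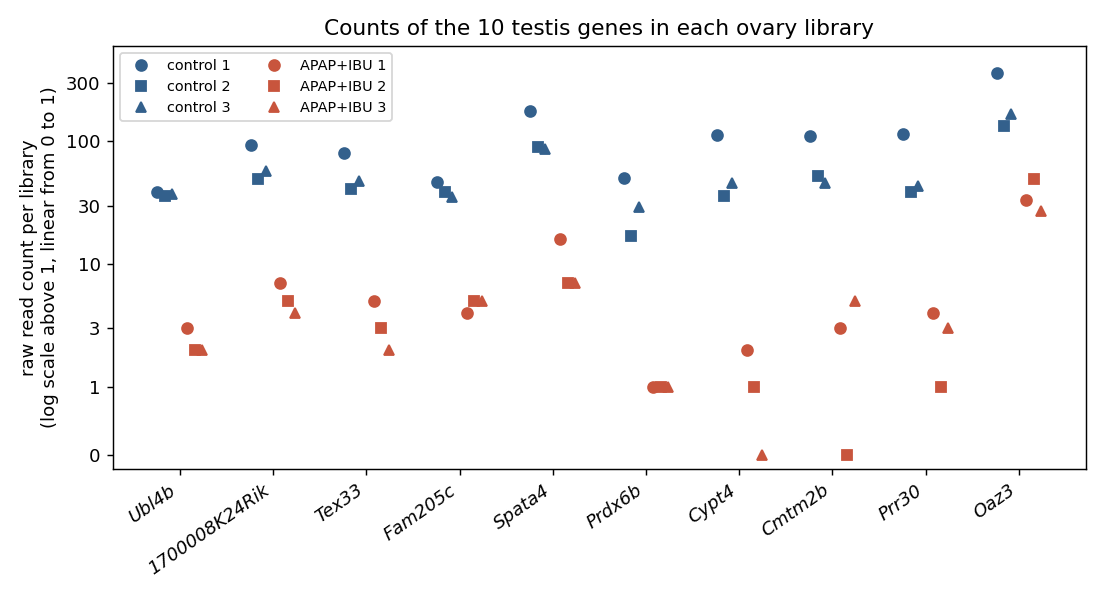
Raw read counts of the 10 testis genes on the vertical axis (log scale above 1, linear between 0 and 1), with 3 control libraries in blue and 3 APAP+IBU libraries in red and a marker shape for each replicate number. The control points of each gene lie above its exposed points, control replicate 1 is the highest control in all 10 genes, and Oaz3 keeps 27 to 49 counts in the exposed libraries.

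Before the values, the bases just ahead of the start site are shown for 6 of the genes, so that the promoters of genes with a like pattern can be set side by side. RefSeq gave a window from 250 bases before to 50 bases after the start for 8 of the 10 genes, with 9 windows in all since Tex33 has a pair of starts. The 100 bases ahead of the start are printed on the strand of the gene, 5′ to 3′, on build GRCm38.p6. Capitals mark every match to the motifs searched on both strands.
Ubl4b, chr3:107555074-107555173, minus strand: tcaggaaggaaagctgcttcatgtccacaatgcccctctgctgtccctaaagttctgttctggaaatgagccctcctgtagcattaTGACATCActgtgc
Tex33, chr15:78395913-78396012, minus strand: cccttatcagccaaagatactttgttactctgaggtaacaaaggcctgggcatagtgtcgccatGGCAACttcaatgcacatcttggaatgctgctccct
Spata4, chr8:54600681-54600780, plus strand: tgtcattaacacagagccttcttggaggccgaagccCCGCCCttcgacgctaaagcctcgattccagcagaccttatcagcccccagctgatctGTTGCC
Cypt4, chr9:24625085-24625184, plus strand: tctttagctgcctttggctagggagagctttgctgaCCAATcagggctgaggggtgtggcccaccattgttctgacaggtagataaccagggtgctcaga
1700008K24Rik, chr17:49113534-49113633, minus strand: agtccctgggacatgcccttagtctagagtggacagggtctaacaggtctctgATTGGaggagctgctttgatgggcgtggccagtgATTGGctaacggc
Cmtm2b, chr8:104322127-104322226, plus strand: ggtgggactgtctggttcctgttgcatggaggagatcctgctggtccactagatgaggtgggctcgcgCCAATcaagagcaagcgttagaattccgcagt

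These windows shared no single motif among those searched. The cAMP response element (CRE, TGACGTCA) was in 0 of the 9 windows and in 1.79% of the 32851 windows of the table, and its half-site TGACG, which the full element contains, was in 0 of 9 against 20.8%. The CRE-like octamer TGACATCA stood 14 bases ahead of the start of Ubl4b, and 3.62% of all windows held it. The half-site GTTGCC, which RFX factors bind, was found ahead of Spata4 and of the upstream start of Tex33, and in 12.5% of all windows. A CCAAT box was found in Cypt4, Cmtm2b and 1700008K24Rik, in 3 of 9 windows against 37.4%, and 1700008K24Rik had a pair of them. A TATA box (TATAAA) and a GC box (GGGCGG) were found in Spata4 alone, against 13.6% and 35.7% of all windows. The TATA box of Spata4 lies farther from the start than the bases shown. A match is a description of the letters and says nothing of binding in these cells.

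Of the members 3 are single-exon genes, and Ubl4b and Prdx6b among them have a relative that is used throughout the body. Ubl4b encodes a ubiquitin-like protein of haploid germ cells and occupies chromosome 3 from 107553687 to 107555073 (GRCm38, as for all positions), in 1 exon. Its reads numbered 39, 36 and 37 in the control libraries but 3, 2 and 2 in the exposed ones. Its controls were the most even of the 10 genes, at 0.946 ± 0.0867 CPM (SD, n = 3), where CPM is the count scaled to a common library size with TMM factors. The exposed level was 0.0516 ± 0.00775 CPM (SD, n = 3), a log2 fold change of -4.11 (standard error 0.41).

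Prdx6b is a single-exon relative of the antioxidant enzyme gene Prdx6 and lies on chromosome 2 from 80292472 to 80295356. It had 50, 17 and 29 counts in the control replicates and 1 count in each exposed library. The levels were 0.812 ± 0.446 CPM (SD, n = 3) and 0.0225 ± 0.00321 CPM (SD, n = 3). Against 3 exposed counts in all, the pooled ratio of control to exposed was 36.3, with a 95% counting interval from 12.1 to 179.

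Cypt4 belongs to a family named for the cysteine-rich proteins of the perinuclear theca, the shell around the sperm nucleus, and lies in 1 exon on chromosome 9 from 24625196 to 24625824. It had 113, 36 and 46 counts in the control replicates and 2, 1 and 0 counts in the exposed ones. Control replicate 1 thus held more reads of Cypt4 than the other control libraries together. The pooled ratio was 73.8, the highest of the 10, but its counting interval ran from 24.9 to 361. Cypt4 lies wholly inside the gene Dpy19l2 on the opposite strand, without sharing exon bases with it, and Dpy19l2 had 5 to 14 counts in every library.

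**Figure D2:**
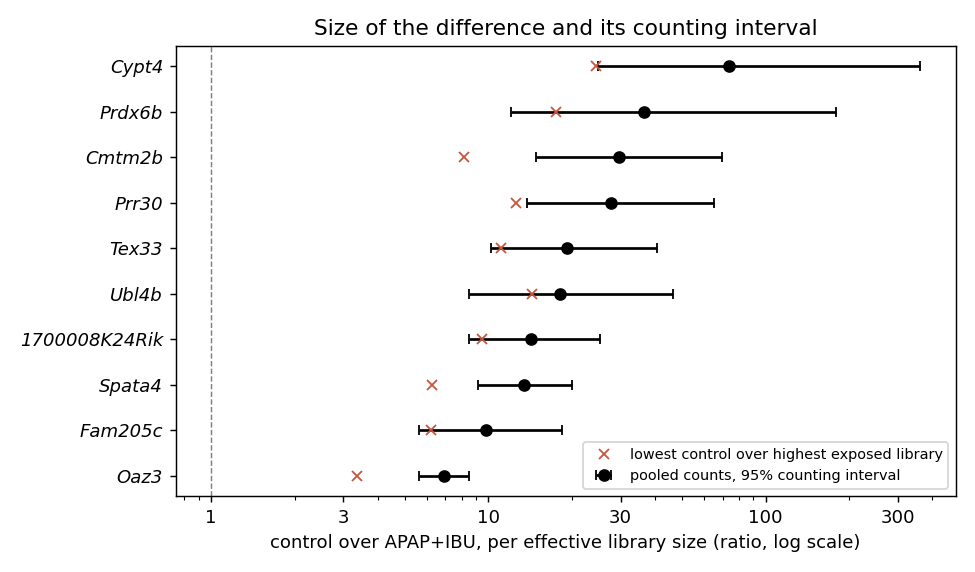
Ratio of control to APAP+IBU counts per effective library size for each gene (horizontal, log scale), with black points for the pooled counts of 3 libraries a group, bars for the 95% counting interval, and a red cross for the lowest control library over the highest exposed one. The ratios run from 6.89 for Oaz3 to 73.8 for Cypt4, and even the crosses lie above 1, from 3.35 to 24.4.

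Oaz3 was the member with the most reads and the smallest difference. It encodes the antizyme of haploid germ cells, a protein that holds back ornithine decarboxylase and with it polyamine synthesis, and lies on chromosome 3 from 94432414 to 94443915. Oaz3 had 361, 134 and 167 counts in the control replicates and 33, 49 and 27 in the exposed ones. Its levels were 5.63 ± 3.32 CPM (SD, n = 3) and 0.808 ± 0.229 CPM (SD, n = 3), and the log2 fold change was -2.80 (standard error 0.45). Oaz3 made up 28.6% of the control counts of the 10 genes and 52.4% of the exposed ones. In APAP+IBU replicate 2 it made up 66.2% of them, while 8 of the other members had 5 counts or fewer there.

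The reads of Oaz3 are less certainly its own than those of the other members. Annotated exons of Oaz3 and of Tdrkh, a piRNA pathway gene on the opposite strand, share 2255 bases, and 51.2% of the 50-base words of the Oaz3 transcripts occur in transcripts of other genes on either strand. The strand setting of the authors' counting is not given in the sources used here. Tdrkh had 2091, 2353 and 2655 counts in the control replicates and 3732, 3881 and 1973 in the exposed ones, a log2 fold change of 0.23 (adjusted p = 0.716 in edgeR's test). The exposed Oaz3 counts stood at 0.884%, 1.26% and 1.37% of those of Tdrkh. Within the exposed group the raw counts of both genes were highest in replicate 2 and lowest in replicate 3, the exposed library of least depth. In CPM, Oaz3 was lowest in replicate 1 (0.651, 1.07 and 0.703) and Tdrkh in replicate 3 (73.6, 84.7 and 51.4). In the controls, replicate 1 had the most Oaz3 counts and the fewest Tdrkh counts. Whether reads of Tdrkh entered the count of Oaz3 was not tested. For the other 9 genes, between 0% and 6.75% of the 50-base words occurred in other genes, the latter in Spata4 with a short antisense gene that had 0 counts in every library.

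The members with several exons and no body-wide relative named here differed by 9.81 to 29.7 times in pooled counts. Spata4 (spermatogenesis associated 4, chromosome 8, 54600781 to 54610098) had 177, 90 and 86 control counts and 16, 7 and 7 exposed counts. Tex33 (testis expressed 33, chromosome 15, 78378400 to 78395912) had 80, 41 and 48 control counts and 5, 3 and 2 exposed counts. Prr30 (proline rich 30, chromosome 14, 101197690 to 101200330) had 114, 39 and 43 control counts and 4, 1 and 3 exposed counts. Each of these had its highest control value in replicate 1 and no exposed library above 16 counts.

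Cmtm2b encodes a membrane protein of the CKLF-like MARVEL family and lies on chromosome 8 from 104322230 to 104330764. It had 111, 52 and 46 control counts and 3, 0 and 5 exposed counts. Fam205c (chromosome 4, 42868004 to 42874234) had 47, 39 and 35 control counts and 4, 5 and 5 exposed counts, so that its controls were close to each other. 1700008K24Rik (chromosome 17, 49112263 to 49113535), which GENCODE M21 lists as a long intergenic RNA, had 94, 49 and 57 control counts and 7, 5 and 4 exposed counts. It is the one member with no annotated protein.

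Per kilobase of exon, the control levels ran from 0.281 CPM per kb (Prdx6b) to 2.85 CPM per kb (Spata4), with Cypt4 at 2.64 and Cmtm2b at 2.03. The median exon length of the members was 1310 bases against 3610 bases for the tested genes, and their median GC content was 48.6% against 49.4%. In mean CPM over the control libraries the members lay between the 17.4th and the 39.4th percentile of the tested genes. All 10 passed the filter on low counts, but only Oaz3 exceeded its limit of 0.242 CPM in every exposed library. The others passed through the control libraries, so their having a fitted difference follows in part from the filter.

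The choice of members gave no numerical limit, and ordered by unadjusted p on the lower side they stood at ranks 1 to 52. Ubl4b stood at rank 1, 1700008K24Rik, Tex33, Fam205c and Spata4 at ranks 4 to 7, and Prdx6b and Cypt4 at ranks 10 and 11. Between them stood Nefm, a neurofilament gene that is no testis gene, with a log2 fold change of -1.67, and Smcp, Pgk2 and Adam3, which are genes of male germ cells, with -4.79, -3.97 and -3.59. Prr30, Oaz3 and Cmtm2b followed at ranks 24, 48 and 52. By size of change alone the order was different, with Cypt4 at rank 3 and Ubl4b at rank 56.

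Within the control group the 10 genes were not equally spread. The order by p that the members came from depends on the control values too, so these shares are a description. Control replicate 1 carried 32.1% of the effective depth of the 3 control libraries. It carried 58.2% of the control counts of Prr30 (95% Clopper-Pearson interval 50.9 to 65.2) and 57.9% of those of Cypt4 (50.7 to 65). It carried 34.8% of those of Ubl4b (26.1 to 44.4) and 38.8% of those of Fam205c (30.1 to 48.1), and both intervals include 32.1%. The 8 other members had intervals wholly above 32.1%. These intervals cover counting error only.

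In CPM, control replicate 1 exceeded the mean of the other controls by 1.13 times (Ubl4b) to 2.94 times (Prr30). The ratio was above 1.5 in 8 of the 10 members, against 12.3% of all tested genes. The protamine and transition protein genes, which pack the DNA of spermatids, leaned to the same library. By share of control counts Prm1, Prm2 and Tnp2 did so further than any member, while Tnp1 lay within the range of the members. Control replicate 1 held 71.9% of the control counts of Prm1 (69.8 to 73.9), 63.8% of Prm2 (61.5 to 66), 65.1% of Tnp2 (62.3 to 67.8) and 54.5% of Tnp1 (52 to 57.1). Without control replicate 1, the log2 fold changes of the members were from -5.35 (Cypt4) to -2.20 (Oaz3), with -4.06 for Ubl4b and -4.04 for Prr30.

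**Figure D3:**
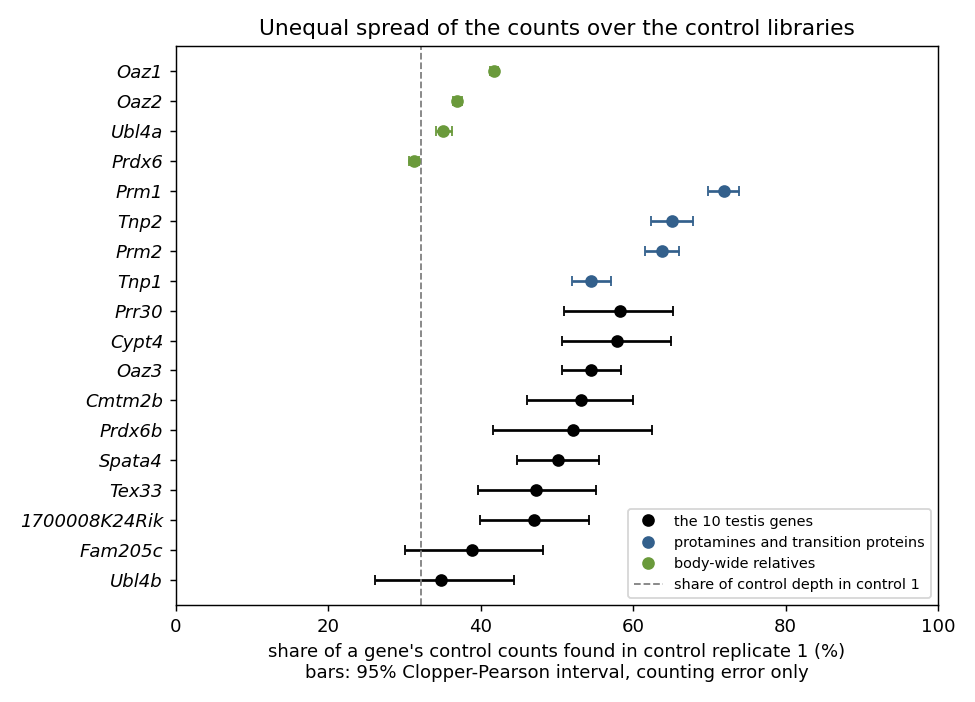
Share of each gene's control counts that came from control replicate 1, in percent, with 95% Clopper-Pearson intervals, for the 10 testis genes (black), spermatid chromatin genes (blue) and body-wide relatives (green). The dashed line marks the 32.1% of control depth in that library, and Ubl4b and Fam205c are the only testis genes whose intervals include it.

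Next, the relatives of the members were compared, to show how the rest of each family stood. Ubl4a, which helps to guide tail-anchored proteins to membranes, stood at 67 ± 5.64 CPM in the controls and at 59.3 ± 3.4 CPM in the exposed libraries (SD, n = 3; log2 fold change -0.18, adjusted p = 0.699 in edgeR's test). Ubl4b counts were 1.37% to 1.47% of those of Ubl4a in the controls and 0.076% to 0.103% in the exposed libraries. Prdx6 had 176 ± 6.56 and 147 ± 28.2 CPM (SD, n = 3; log2 fold change -0.26, adjusted p = 0.692 in edgeR's test). The antizyme genes Oaz1 and Oaz2 had log2 fold changes of -0.24 and -0.17, with adjusted p of 0.783 and 0.748 in edgeR's test. The groups overlapped in all 4 of these relatives, and each stood far above its testis gene per kilobase, with control levels of 21.3 (Ubl4a), 36.7 (Prdx6), 126 (Oaz1) and 72.1 (Oaz2) CPM per kb.

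Relatives that are themselves testis genes had values like those of the members. Cmtm2a, the neighbour of Cmtm2b on chromosome 8, had 62, 32 and 44 control counts and 6, 0 and 4 exposed counts (log2 fold change -3.92, unadjusted p = 0.000587, adjusted p = 0.139 in edgeR's test). Cypt1 had 93, 27 and 31 control counts and 1, 0 and 2 exposed counts, with a log2 fold change of -5.67 (adjusted p = 0.103 in edgeR's test). Cypt12 had 117, 39 and 31 control counts and 8, 1 and 2 exposed counts, with a log2 fold change of -4.28 (adjusted p = 0.152 in edgeR's test). All 3 missed the adjusted threshold. Cypt2 and Cypt3 were under the filter, with 7 to 27 and 7 to 33 counts in the controls and 0 and 1 to 5 counts in the exposed libraries. Cypt14, Cypt15 and the Fam205a genes had at most 8 counts in any library.

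Sequence likeness within these families was partial. Aligned locally over the longest transcripts, Cypt4 and Cypt3 had 79.8% identity over 679 aligned positions and Cmtm2b and Cmtm2a 74% over 593. Prdx6b and Prdx6 had 88.2% over 170 positions, and Ubl4b and Ubl4a 66.3% over 199. Of the 50-base words, a length equal to that of the reads, 1.55% of Cypt4 and 0.247% of Prdx6b also occurred in other genes. Most words of this length in both genes occurred in no other gene.

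**Figure D4:**
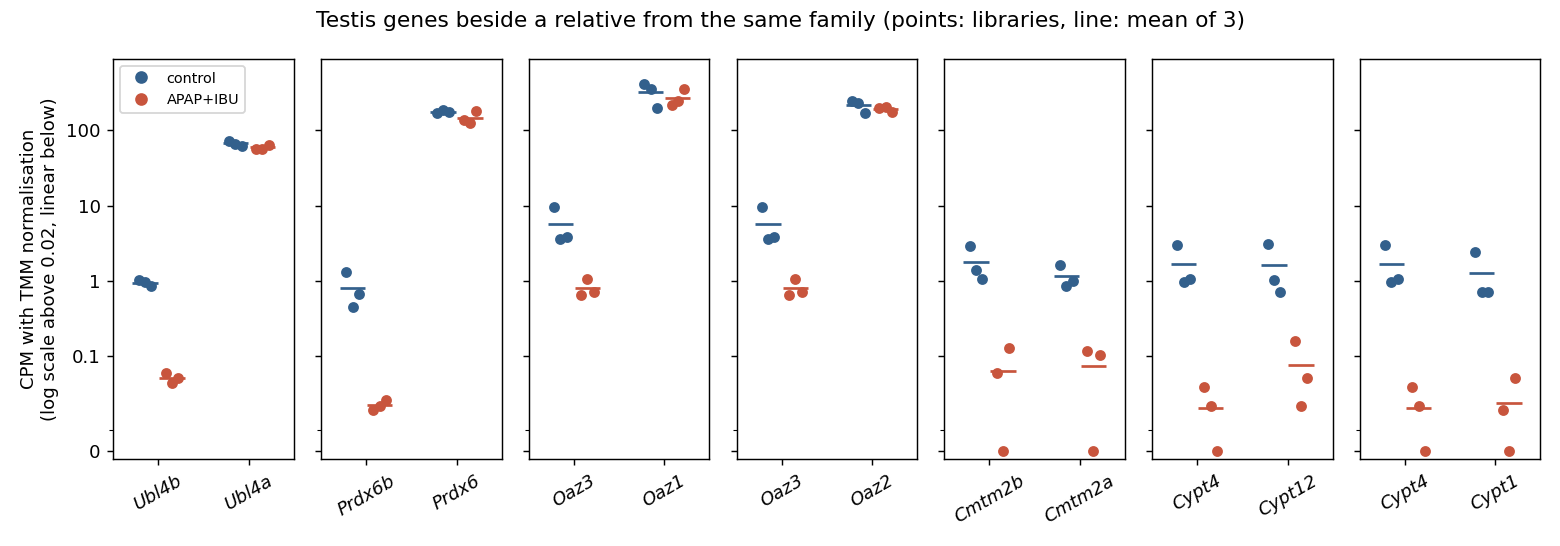
Levels in CPM with TMM normalisation (log scale above 0.02, linear below) of testis genes beside a relative of the same family, with 3 control libraries in blue, 3 APAP+IBU libraries in red and a line at each mean. The relatives Ubl4a, Prdx6, Oaz1 and Oaz2 stand at 124 to 410 CPM or, for Ubl4a, 57.2 to 73.1 CPM in both groups, while Cmtm2a, Cypt12 and Cypt1 are separated between the groups like their testis relatives.

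Of the 40 relatives and partners listed, 39 were in the table and 24 were tested. At an unadjusted p under 0.05, 4 were lower (Cmtm2a, Cypt1, Cypt12 and Spef1) and 1 was higher (Cklf), and the median log2 fold change was -0.21. At the adjusted p 0 were called by edgeR, and DESeq2 called 3 lower. Spef1, a gene of cilia and sperm tails, had a log2 fold change of -0.50 and Cklf of 0.68 (adjusted p = 0.692 for both in edgeR's test). This count of 4 became 10 without control replicate 3 and 11 without APAP+IBU replicate 3, the libraries with the most fetal liver reads. Calls rose in the whole table too, from 648 lower genes of 20167 to 3185 of 20634 and 1305 of 20973 in these fits. The rise is therefore not particular to the relatives.

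The genes next to each member on the chromosome were taken as a further comparison, 20 in all. One of the 20 was lower at an unadjusted p under 0.05 (Cmtm2a, given above), a share of 5% beside the 3.21% of all tested genes, and their log2 fold changes had a median of 0.046. In edgeR 0 of them passed the adjusted p, and DESeq2 called 1. Mrpl9, a mitochondrial ribosomal protein gene that lies on the opposite strand and shares 157 exon bases with Oaz3, had a log2 fold change of -0.068 (adjusted p = 0.856 in edgeR's test). Pde1a and Dnajc10 around Prdx6b had 0.10 and 0.0067. Dpy19l2, which contains Cypt4 and serves the attachment of the acrosome in sperm, had -0.91 with a standard error of 0.50 (unadjusted p = 0.104, adjusted p = 0.692 in edgeR's test).

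Other genes known from testis cDNA collections were then counted by symbol, leaving out the members. Genes still named after RIKEN clones of adult testis libraries numbered 1163, of which 299 were tested. At an unadjusted p under 0.05, 52 of them were lower, which is 17.4%, and 11 were higher. Of the 710 tested genes named after other RIKEN libraries, 9 were lower, which is 1.27%, and 35 were higher. At the adjusted p edgeR called 0 genes of either list, and DESeq2 called 35 lower ones of the first and 1 of the second. The lower gene of the second list with the smallest p, 4922502D21Rik, had counts like those of the members. They were 158, 46 and 65 in the controls and 10, 3 and 6 in the exposed libraries (log2 fold change -4.0, adjusted p = 0.103 in edgeR's test). The median log2 fold change was -0.047 in the adult testis clones and 0.14 in the others, so the lower genes were a minority of the adult testis clones.

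The adult testis clones with the smallest p on the lower side were 1700009N14Rik, 4933402J07Rik, 1700034E13Rik, 1700019N19Rik and 1700001C19Rik. Of these 1700034E13Rik had the largest difference, with 78, 24 and 35 control counts and 1, 2 and 2 exposed counts (log2 fold change -4.85, adjusted p = 0.0906 in edgeR's test). 1700019N19Rik had 42, 27 and 29 control counts and 2, 5 and 2 exposed counts, a log2 fold change of -3.58. Of the 299 tested clones, 211 exceeded the filter limit in every exposed library. With at least 10 counts required in every library 11 were lower, beside 475 of all 17943 genes kept. How many genes of each list that filter kept was not counted. Over the 52 lower clones, the median ratio of control replicate 1 to the mean of the other controls was 2.2, against 1.33 over the 648 lower genes of the whole table and 0.986 over all tested genes.

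Genes named Tex or Spata, for testis expressed and spermatogenesis associated, made a further list. Of 47 tested, 14 were lower at an unadjusted p under 0.05 (29.8%) and 2 were higher, and the median log2 fold change was -0.34. Of the 47, 32 exceeded the filter limit in every exposed library and the others were tested through their control counts. With at least 10 counts required in every library 2 were lower, beside 475 of all 17943 genes kept. Spata19 had 172, 53 and 51 control counts and 11, 2 and 2 exposed counts (log2 fold change -4.41, adjusted p = 0.123 in edgeR's test). The log2 fold changes of the next 4 by p were -4.09 (Tex48), -4.03 (Spata16), -3.65 (Spata3) and -4.52 (Spata45). Tex15, which acts in meiotic recombination, and Tex16 were higher, with 1.09 and 0.98 (adjusted p = 0.692 for both in edgeR's test). The adjusted p gave 0 calls in edgeR and 8 lower genes in DESeq2.

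**Figure D5:**
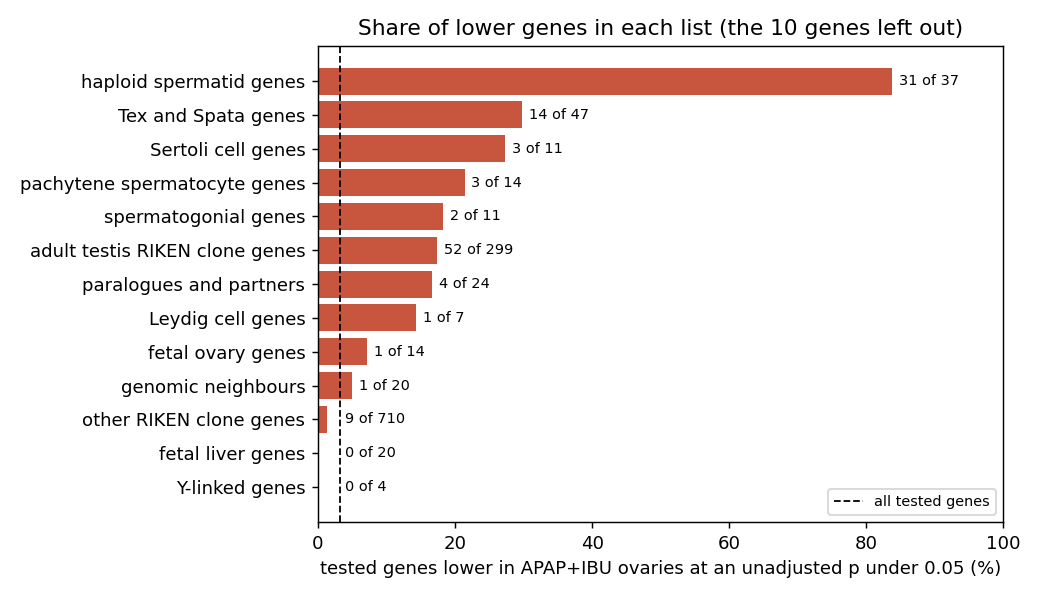
Percent of tested genes in each list that had a lower level after exposure and an unadjusted p under 0.05 in edgeR's test, with counts beside the bars and a dashed line at the 3.21% of all tested genes. Haploid spermatid genes reach 83.8%, Tex and Spata genes 29.8% and adult testis clones 17.4%, and the other RIKEN clones stand at 1.27%.

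Most genes of a list of spermatid genes that left out the members were lower too. Of 37 tested, 31 were lower at an unadjusted p under 0.05 and 1, Zpbp, was higher, and the median log2 fold change was -3.62. Of the 37, 12 exceeded the filter limit in every exposed library and the others were tested through their control counts. With at least 10 counts required in every library 7 were lower, beside 475 of all 17943 genes kept. Spata3 and Spata18 stand in this list and in the one before. Several spermatid genes head the lower side of the study's own list on these samples, so their direction is not independent evidence. In edgeR 0 passed the adjusted p, and DESeq2 called 27 lower. Their summed level was 82.1 to 231 CPM in the controls and 22.4 to 29.9 CPM in the exposed libraries, with the highest value in control replicate 1. Prm1, the first protamine, had 1367, 286 and 248 control counts and 40, 9 and 10 exposed counts.

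Markers of the other cells of a testis were lower in smaller shares than spermatid genes, but in larger shares than the 3.21% of all tested genes. The shares were 21.4% (pachytene spermatocyte), 18.2% (spermatogonial), 27.3% (Sertoli) and 14.3% (Leydig), each from a short list. Most of these markers had reads in both groups, so their shares and sums are not like those of the spermatid list. The filter limit was exceeded in every exposed library by 13 of 14, 11 of 11, 9 of 11 and 6 of 7 genes of the lists below. For spermatid genes this was 12 of 37. The sums follow their highest genes, such as Lin28a at 140 and 107 CPM, and a difference of a few CPM would not show in them. Of 14 pachytene spermatocyte genes 3 were lower at an unadjusted p under 0.05 (Adam3, Spink2 and Clgn), with a median log2 fold change of -0.30 and summed levels of 179 to 212 against 169 to 191 CPM. Of 11 spermatogonial genes 2 were lower (Lin28a and Eomes), with a median of -0.27 and sums of 334 to 471 against 285 to 403 CPM. Of 11 Sertoli cell genes 3 were lower (Dhh, Ptgds and Rhox5), with a median of -0.82 and sums of 194 to 346 against 193 to 212 CPM. Of 7 Leydig cell genes 1 was lower (Cyp17a1), with a median of -0.62 and sums of 39.1 to 77.8 against 34.7 to 49.5 CPM. No gene of these lists passed the adjusted p in edgeR, and DESeq2 called 1, in the first list. The defining Leydig marker Insl3 had 0 to 9 counts.

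Of the 11 Y-linked genes 4 were tested and 0 were lower or higher at an unadjusted p under 0.05 (0 also by DESeq2 and at the adjusted p in edgeR), with sums of 2.33 to 9.91 CPM in the controls and 2.69 to 3.12 CPM in the exposed libraries. All 4 had negative log2 fold changes, with a median of -0.89, and control replicate 2 held the highest sum. Ddx3y had 20, 90 and 18 control counts and 25, 13 and 18 exposed counts. Fetal ovary genes were present in all libraries, with sums of 1810 to 2060 CPM and 1750 to 2220 CPM, among them Dazl at 434 ± 104 and 552 ± 65.3 CPM (SD, n = 3). Foxl2, which marks granulosa cells, was low, with 311, 89 and 41 control counts and 112, 200 and 200 exposed counts. Control replicate 1 held 70.5% of the control counts of Foxl2 (66 to 74.7), so a lean to that library was not limited to testis genes. Of the 14 fetal ovary genes 1 was lower (Dppa3) and 1 higher (Lgr5) at an unadjusted p under 0.05, and 0 passed the adjusted p in edgeR or in DESeq2. Fetal liver genes were highest in replicate 3 of both groups, at 2220 and 3560 CPM in sum against 227 to 616 CPM elsewhere, and 0 of these 20 genes were called at an unadjusted p under 0.05 or at the adjusted p of either tool. In a fit without either replicate 3 the members had log2 fold changes from -5.97 to -2.91, and 12.9% of all tested genes were called lower by edgeR at an adjusted p under 0.05. Fewer cells of a type and less RNA in each cell cannot be told apart in pooled tissue, and whether any of these cell types had a part in the member counts was not tested.

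Finally, the tested genes outside the members with the most similar pattern were ranked by Pearson correlation of log2 CPM with the mean of the members over the 6 libraries. The first 5 were 1700001C19Rik, Adam3, 1700001K19Rik, Adi1 and Pgk2. The points share libraries and a split into groups, so the values describe likeness only. Adam3, a sperm surface protein gene, had 131, 57 and 65 control counts and 11, 7 and 6 exposed counts, and Pgk2, the glycolytic kinase of male germ cells, had 115, 44 and 64 and then 8, 4 and 4. 1700001K19Rik had 27, 10 and 14 control counts and 0 in every exposed library. Adi1, an enzyme gene of methionine salvage, was split between the groups at another scale, with 51.3 ± 2.52 CPM against 37.3 ± 0.113 CPM (SD, n = 3; log2 fold change -0.46, adjusted p = 0.388 in edgeR's test). Among the members themselves the correlation with their mean ran from 0.96 (Cmtm2b) to 0.999 (1700008K24Rik).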

How the data were processed

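RNA of 13.5 dpc ovaries was sequenced in 3 control and 3 APAP+IBU libraries as paired reads of 50 bases. The authors mapped the reads to mm10 with TopHat2 2.0.14 and Bowtie2 2.1.0, counted them per gene of Ensembl release 86 with HTSeq 0.6.1 and deposited raw counts without normalisation. Total counts per library ran from 37811968 to 48954631, so 1 count is a small fraction of 1 CPM.

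These counts were analysed with edgeR 4.0.16 in R 4.3.3. Its expression filter kept 20167 genes, libraries were scaled with TMM, and p-values of the quasi-likelihood F test received a Benjamini-Hochberg adjustment across all kept genes. CPM used TMM, and log2 CPM a prior count of 1. Standard errors are the log2 fold change over the square root of its F value. Pooled ratios have exact binomial 95% intervals for counting error only. DESeq2 1.42.0 was an alternative. Symbols, lengths and positions came from GENCODE M21 on GRCm38, the assembly of mm10, and 48349 of the 48709 identifiers matched. Promoters came from RefSeq. No library was a copy of another of its group (chi-square per degree of freedom 17.2 to 143). The tests were also run on simulated data in which the spread between libraries was capped. That run cannot tell how they do on genes as uneven as most members.

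The members, lists and alternatives were chosen with earlier results of these data known. Genes named are all members, their families, some of their neighbours, the 5 genes most alike, and list markers. The 5 genes with the smallest lower p are named for the adult testis clones and for the Tex and Spata genes. For the other RIKEN clones only the first is named. Tdrkh, Nefm, Smcp and the genes called in the short lists were named after their values were seen. Alternatives covered the scaling, the filter, a length and GC correction, DESeq2 and leaving out libraries. Replicates are separate pools of gonads per the study's methods, and the deposited labels number them without naming the dams. The values of 1 neighbour are not reported here.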

Additional observations from a re-analysis of the deposited data

How the results depend on the processing

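All 10 members had negative log2 fold changes under every alternative, and their median ran from -4.39 to -3.95 without single libraries and was -3.92 with a length and GC correction. With at least 10 counts in every library only Oaz3 was left, at -2.81, and no median was formed. Ubl4b was at -3.90 with the length and GC correction and Cmtm2b at -5.97 with replicates 1 and 2 only.

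Counts of called genes varied more. At the adjusted p, against 0 in edgeR, 192 were called by DESeq2, 120 with all genes of at least 1 count, 5607 with replicates 1 and 2 only, and 0 to 1064 without single libraries (1064 without control replicate 3). Lower genes at an unadjusted p are set beside the 648 of 20167 in the main fit, and the fits held different numbers of genes. They were 1164 of 32782 with all genes of at least 1 count, 1113 of 20103 with the length and GC correction and 4136 of 20633 with replicates 1 and 2 only. Without single libraries they ran from 424 to 3185 (424 of 20897 without control replicate 1, 1305 of 20973 without APAP+IBU replicate 3, 3185 of 20634 without control replicate 3).

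With all 32782 genes of at least 1 count, 186 adult testis clones, 23 Tex and Spata genes and 7 relatives and partners were lower. How many genes of each list that larger set held was not counted. With at least 10 counts in every library these were 11, 2 and 1, beside 7 spermatid genes and 0 neighbours. That test held fewer genes, 17943, of which 475 were lower. With replicates 1 and 2 only, 79 clones, 17 relatives and partners and 2 neighbours were lower. Without single libraries, 45 to 74 clones, 13 to 17 Tex and Spata genes, 30 to 32 spermatid genes, 3 to 11 relatives and partners and 1 to 2 neighbours were lower. Leaving out control replicate 1 gave 45, 13, 30, 3 and 1 in that order, the low end of each range. Apart from what is said of the construction, the cause was not tested.

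Deviations of same-numbered libraries from their group means were only weakly correlated (-0.069, -0.015 and -0.044). These values cannot decide whether same-numbered pools came from the same experiment, which the labels do not state. Replicate 3 of both groups shared the highest fetal liver level. With the replicate block 2 genes passed the adjusted p and 382 were lower at an unadjusted p, and with the block and the length and GC correction 39 passed the adjusted p. The members' median was -4.18 with the replicate block. Most exposed member values are of 5 counts or fewer, 23 of 30, which limits how far their ratios can be known.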
